A study of Mus musculus with 6 samples.

Results

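The genes described here are the adult globin chains Hba-a1, Hba-a2, Hbb-b1 and Hbb-b2, the erythroid heme enzyme gene Alas2 and the red cell anion exchanger gene Slc4a1, measured in testes of mice labelled as knockouts of Prss37, a testis serine protease gene, and in wild-type testes. Probes were taken by the gene name in the scanner files. Of the 6 genes, 5 had at least 1 probe under that name and together had 8 probes, of 41174 probes for 27343 genes on the array, and no probe was named Hbb-b2. All 8 probes were well above background on all 6 arrays. RNA came from testes of 3 Prss37KO mice and 3 WT mice, all male, on the C57BL/6 background and 6 to 8 weeks old, with 1 single-colour Cy3 array per mouse. The deleted part of Prss37 is not given in the labels. One label field of the Prss37KO samples gives another serine protease, Prss55, as the missing gene, and the titles were followed here.

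Hemoglobin is built of alpha and beta globin chains, each holding a heme, and it fills the red blood cell. Heme synthesis in red cell precursors starts with the erythroid aminolevulinate synthase made from Alas2, whereas most other cells use the enzyme made from Alas1. Mature red cells of mammals have no nucleus, but the youngest ones in the circulation, the reticulocytes, still carry globin messenger RNA, so blood in a tissue brings globin transcripts with it. Whether blood was removed from the testes before RNA extraction is not given in the sources used here.

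Between 69.2% and 71.4% of the non-control spots of an array were well above background and 0 were saturated. The targeted gene, Prss37, had a log2 level of 5.46 ± 0.06 in the knockout testes and 6.16 ± 0.10 in the wild-type testes (SD, n = 3 each), without overlap, a difference of -0.71 that passed the test (limma, adjusted p = 0.024). The knockout level was 1.63-fold lower and still far above the 75th percentile, and since the deleted part is not known this probe checks the labels only in part. Levels on the log2 scale are relative to the 75th percentile of each array, here and below. Of 18 testis markers, 17 were tested and 0 passed the test, with differences between -0.23 and 0.12. The germ cell marker Tnp1, a transition protein of spermatids, had processed signals of 471797, 479164 and 508148 on the knockout arrays and 483062, 464326 and 526357 on the wild-type arrays. The Sertoli cell marker Amhr2 had 90774, 85596 and 86856 on the knockout arrays and 83808, 83765 and 86950 on the wild-type arrays, and Cyp17a1, a Leydig cell steroid enzyme gene, had 20826, 21604 and 21567 on the knockout arrays and 22786, 18557 and 23731 on the wild-type arrays. These defining testis markers were well above background on every array of both genotypes.

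The globin probes are shown first because several of them detect more than 1 gene copy. The Hba-a1 probe A_52_P278538 lies at chr11:32183775-32183956 (mm9, plus strand) and the scanner file lists RefSeq transcripts of both Hba-a1 and Hba-a2 for it. The Hba-a2 probe A_52_P208681 has no genome position in the file, and no RefSeq transcript of a current gene is listed for it. Whether the 2 probes measure Hba-a1 and Hba-a2 apart is therefore not known. The 2 probes overlap in 30 bases, of which 27 are identical, and the capitals mark the 3 bases that differ, T37C, C49T and C52T, with positions counted from 1 at the 5' end of the Hba-a1 probe.
Hba-a1 probe A_52_P278538: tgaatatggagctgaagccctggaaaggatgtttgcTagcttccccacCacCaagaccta
Hba-a2 probe A_52_P208681: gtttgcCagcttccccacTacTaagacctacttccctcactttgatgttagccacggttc

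Hbb-b1 had 4 probes, all on the minus strand of chromosome 7. Their accession is named Hbb-bt in the current RefSeq table (GRCm38.p6), and the file lists more than 1 beta globin transcript for each, so the adult beta globin copies cannot be told apart with them. C57BL/6 mice carry the copies named Hbb-bs and Hbb-bt. Hbb-b2 is listed among the transcripts of 2 of the probes, A_51_P374468 and A_52_P213909. It is not 1 of the copies named for C57BL/6, so these probes give no level of Hbb-b2. The probe at chr7:110962317-110962376 starts at base 61 of the transcript, the one at chr7:110962031-110962090 at base 231 and the one at chr7:110962000-110962059 at base 262. The capitals mark the 29 bases that the last 2 share.
Hbb-b1 probe A_51_P374468: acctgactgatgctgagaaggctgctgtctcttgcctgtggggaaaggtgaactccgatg
Hbb-b1 probe A_52_P260346: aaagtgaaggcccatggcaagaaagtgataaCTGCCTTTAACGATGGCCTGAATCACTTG
Hbb-b1 probe A_51_P374476: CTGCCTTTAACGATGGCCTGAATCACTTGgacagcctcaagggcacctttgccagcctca
The remaining Hbb-b1 probe, A_52_P213909, lies at chr7:110961112-110961171 and starts at base 496 of the transcript.

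The alpha globin genes did not differ between genotypes by more than the spread between mice, and the wild-type mice differed among themselves more than the genotypes did. The Hba-a1 probe had processed signals of 4641, 3324 and 3933 in knockout replicates 1, 2 and 3, and 7782, 2852 and 4929 in wild-type replicates 1, 2 and 3. The wild-type mice held both the highest and the lowest value, and all 3 knockout mice lay between them. The Hba-a2 probe had 4819, 3543 and 3935 in the knockout mice and 8241, 2962 and 5004 in the wild-type mice, in the same order of arrays. The fitted difference, Prss37KO minus WT, was -0.25 on the log2 scale for each gene, with a standard error of 0.35 and an adjusted p of 0.71 (limma). Within slide 1, which held replicates 1 and 2 of both genotypes, the Hba-a1 difference was -0.27, and within slide 2, which held replicate 3 of both, it was -0.22. Slides 1 and 2 had different scan dates, so slide and scan cannot be told apart here or below, and slide 2 held 1 mouse per genotype. The Hba-a1 difference was 0.11 when wild-type replicate 1 was left out and -0.60 when wild-type replicate 2 was, so its direction rested on 1 mouse.

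Beta globin showed the same pattern on each of its 4 probes. The probe A_51_P374476, the brightest of the 4 and the one that stands for Hbb-b1 in the fit, had processed signals of 15123, 10227 and 12530 in the knockout mice and 23933, 7258 and 15146 in the wild-type mice. Wild-type replicate 1 was again highest and wild-type replicate 2 lowest. The fitted difference was -0.11 with a standard error of 0.42 and an adjusted p of 0.90 (limma). It was -0.09 within slide 1 and -0.17 within slide 2, and it was 0.29 without wild-type replicate 1. The other 3 probes of the gene also had wild-type replicate 1 highest and wild-type replicate 2 lowest. The probe A_52_P260346 had 4858, 3261 and 4087 in the knockout mice and 7791, 2439 and 4905 in the wild-type mice. The probe A_51_P374468 had 3120, 2137 and 2556 in the knockout mice and 4767, 1485 and 3117 in the wild-type mice. The probe A_52_P213909 had 8802, 5425 and 6624 in the knockout mice and 13409, 3816 and 8288 in the wild-type mice. On all 4 probes the knockout values fell inside the wild-type range.

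**Figure D1:**
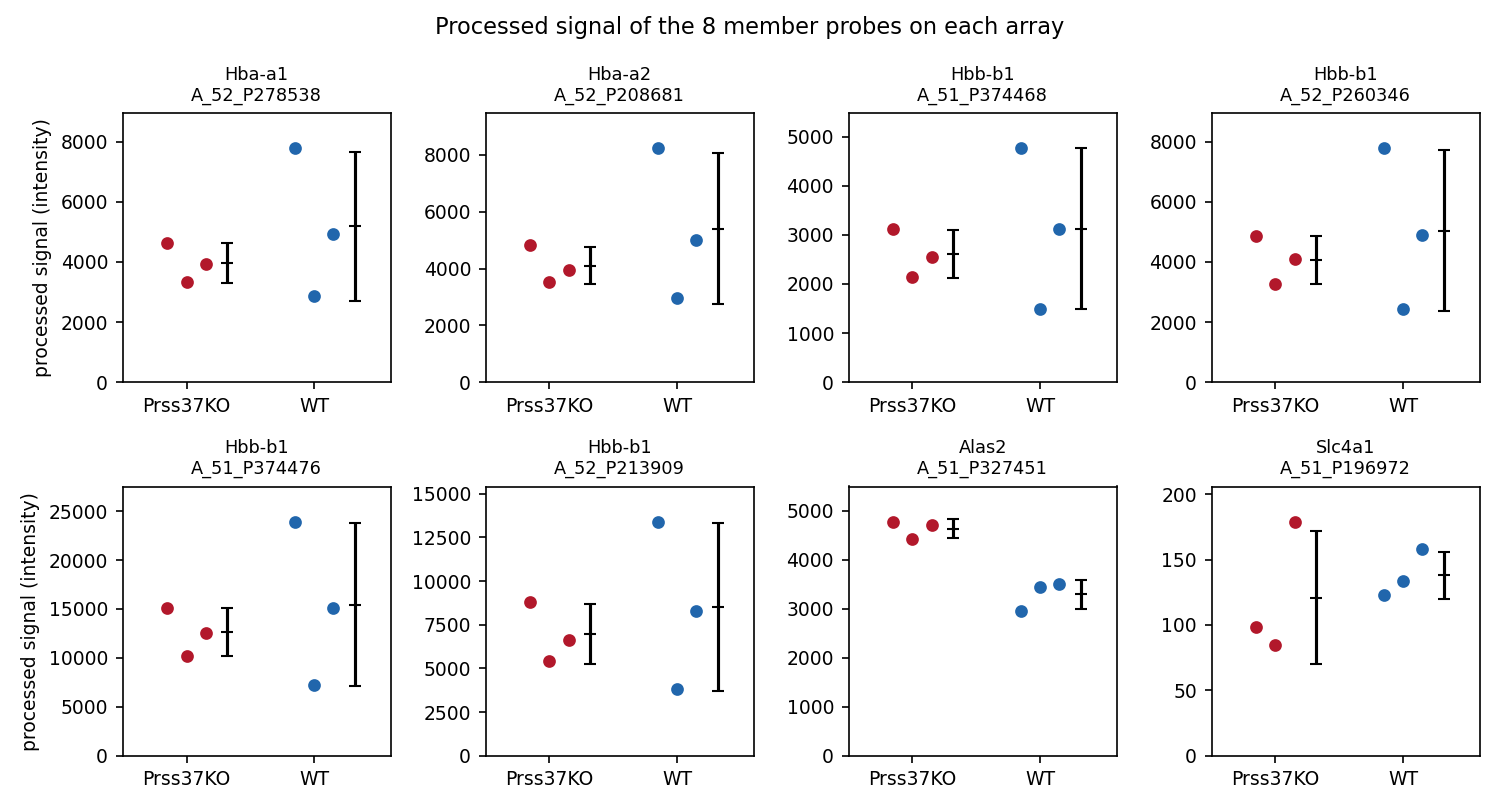
Processed signal (intensity, linear axes from 0) of the 8 probes on each array, with Prss37KO mice in red and WT mice in blue, replicates 1 to 3 from left to right, and the mean with its SD (n = 3) as a bar. All 6 globin panels show wild-type replicate 1 highest and wild-type replicate 2 lowest, while the 3 knockout values for Alas2, 4418 to 4779, lie above the 3 wild-type values, 2958 to 3496.

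Over the 6 globin probes the highest signal in the knockout mice was 1.36 to 1.62 times the lowest, and in the wild-type mice 2.73 to 3.51 times the lowest. The differences between genotypes ran from -0.25 to -0.09 on the log2 scale, with adjusted p between 0.715 and 0.920 when every probe was fitted on its own (limma). These probes share transcripts and are not independent measurements of the genotypes.

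The alpha and beta globin probes moved together from mouse to mouse. With each probe centred on its own mean over the 6 arrays, Hba-a2 and Hba-a1 never differed by more than 0.05 on the log2 scale within an array. The centred difference of Hba-a1 minus Hbb-b1 was -0.11, -0.02 and -0.07 in the knockout mice and -0.02, 0.25 and -0.02 in the wild-type mice. The largest of these, in wild-type replicate 2, was the array with the lowest globin signals, where Hbb-b1 fell further below its mean than Hba-a1 did. By level relative to the 75th percentile, both alpha probes ranked the arrays alike, and so did all 4 beta probes, which differed from the alpha order only in placing knockout replicate 1 above wild-type replicate 3. The mean centred profile of Hba-a1, Hba-a2 and Hbb-b1 was 0.10, -0.30 and -0.11 in the knockout mice and 0.86, -0.66 and 0.11 in the wild-type mice. Its range of 1.52 compares with a median range of 0.26 over the tested genes, and 1.43% of these had a range at least as large.

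**Figure D2:**
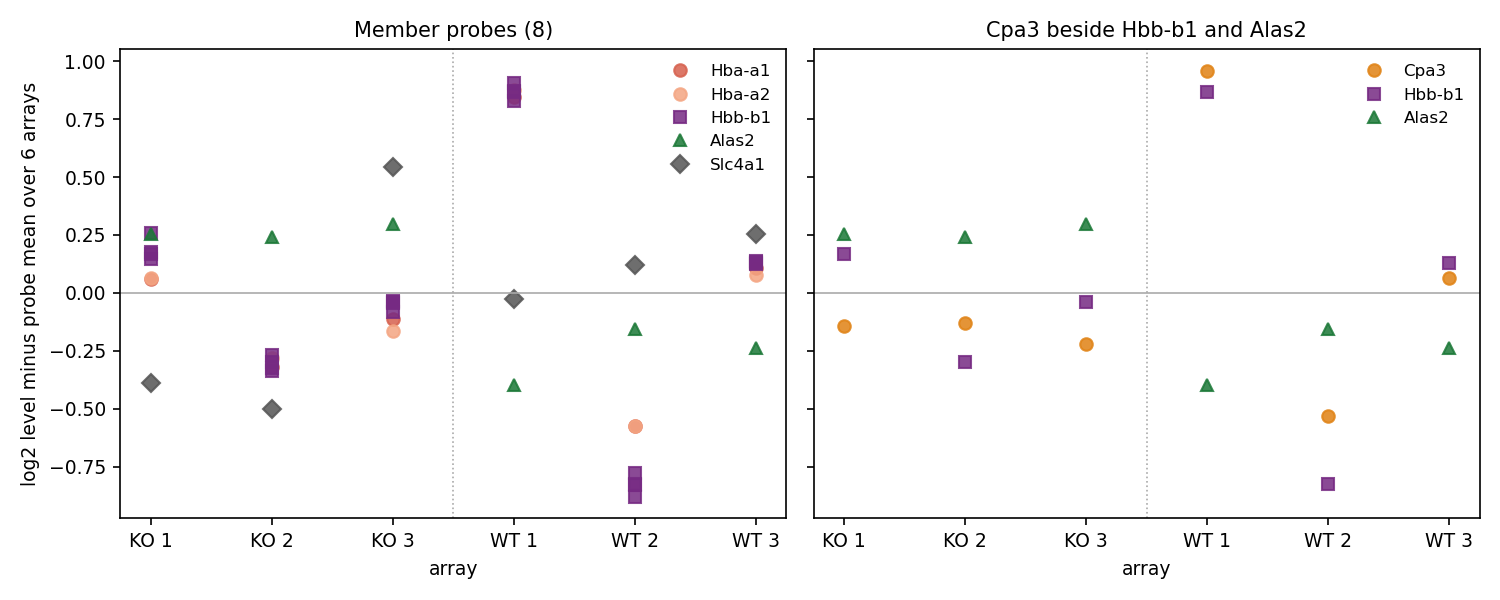
Log2 level of each probe minus its mean over the 6 arrays (y axis) on each array (x axis), for the 8 probes at left and for Cpa3 beside Hbb-b1 and Alas2 at right. The globin points travel together, up to between 0.83 and 0.91 in WT replicate 1 and down to between -0.88 and -0.57 in WT replicate 2, and the Alas2 and Slc4a1 points do not follow them.

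Alas2 was the only one of the 5 tested genes that passed the test between genotypes. Its probe, A_51_P327451 at chrX:147004993-147005052 (mm9, plus strand), had processed signals of 4779, 4418 and 4705 in the knockout mice and 2958, 3443 and 3496 in the wild-type mice. The lowest knockout value was above the highest wild-type value. The fitted difference was 0.53 on the log2 scale with a standard error of 0.07, a 1.44-fold higher level in Prss37KO, with an adjusted p of 0.039 (limma). Thus 1 of the 5 tested genes was called higher, against 1.21% of all 18976 tested genes, and 0 of 5 were called lower, against 1.25%, with 2.46% of all genes called in either direction. The 3 and 3 arrays did not overlap for 31.6% of all tested genes. The difference was 0.52 within slide 1 and 0.53 within slide 2.

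The size of the Alas2 difference held better than its call. With slide as a block the adjusted p was 0.062 (limma), and in that fit 0.416% of all tested genes were called. Leaving out any 1 array gave differences between 0.46 and 0.58, and the call was kept only without wild-type replicate 2. The difference stayed above 0 in all 21 alternative settings, but only another scaling or background correction could have changed its sign. Filters, probe rules and blocks leave it as it is, and without overlap no choice or weighting of arrays can reverse it. It was 0.51 with normexp background correction, 0.53 with quantile normalization or median centring and 0.52 in the deposited table. Alas2 did not share the mouse-to-mouse profile of the globins: the centred difference of Alas2 minus Hbb-b1 was 0.09, 0.54 and 0.34 in the knockout mice and -1.27, 0.67 and -0.37 in the wild-type mice. In wild-type replicate 1, where all globin probes were at their highest, Alas2 was at its lowest.

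Slc4a1, which encodes the chloride-bicarbonate exchanger that anchors the red cell skeleton to the membrane, was dim. Its probe, A_51_P196972 at chr11:102210256-102210315 (mm9, minus strand), had processed signals of 98.3, 84.8 and 179 in the knockout mice and 123, 134 and 158 in the wild-type mice. Knockout replicate 3 was the highest of the 6 arrays and the other 2 knockout mice the lowest. The fitted difference was -0.23 with a standard error of 0.28 and an adjusted p of 0.66 (limma). The difference was -0.49 within slide 1 and 0.29 within slide 2, so its direction was not the same on both slides. With slide as a block its standard error was 0.17 and its adjusted p 0.45 (limma), and with 1 array left out the difference ran from -0.56 without knockout replicate 3 to -0.04 without knockout replicate 2. Its order of arrays was not that of the globins: the centred difference of Slc4a1 minus Hbb-b1 was -0.55, -0.20 and 0.58 in the knockout mice and -0.90, 0.95 and 0.13 in the wild-type mice.

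The spread within a genotype set the globins apart from Alas2. On the log2 scale the SD over 3 mice was 0.19 in Prss37KO and 0.71 in WT for Hba-a1, 0.17 in Prss37KO and 0.73 in WT for Hba-a2, and 0.23 in Prss37KO and 0.85 in WT for Hbb-b1. Of all tested genes, 89.6% in Prss37KO and 99.4% in WT had a smaller SD than Hba-a1, and 92.3% in Prss37KO and 99.6% in WT had a smaller SD than Hbb-b1. The median SD of all tested genes was 0.054 in Prss37KO and 0.086 in WT. Globin SDs were therefore high in both genotypes beside other genes. The difference between the genotypes in globin spread was not tested, since 3 mice per genotype were measured and in WT the spread rested on replicates 1 and 2. Alas2 had an SD of 0.03 in Prss37KO, where 22.9% of genes had a smaller one, and 0.12 in WT, where 67.9% did. Slc4a1 had an SD of 0.57 in Prss37KO, where 98.8% of genes had a smaller one, and 0.14 in WT, where 73.6% did. Wild-type replicates 1 and 2, the highest and lowest globin arrays, both lay on slide 1. Over these 2 mice alone the SD was 1.01 for Hba-a1 and 1.20 for Hbb-b1. Leaving out the mouse between them must raise the SD, so these values are not a separate check of the spread.

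**Figure D3:**
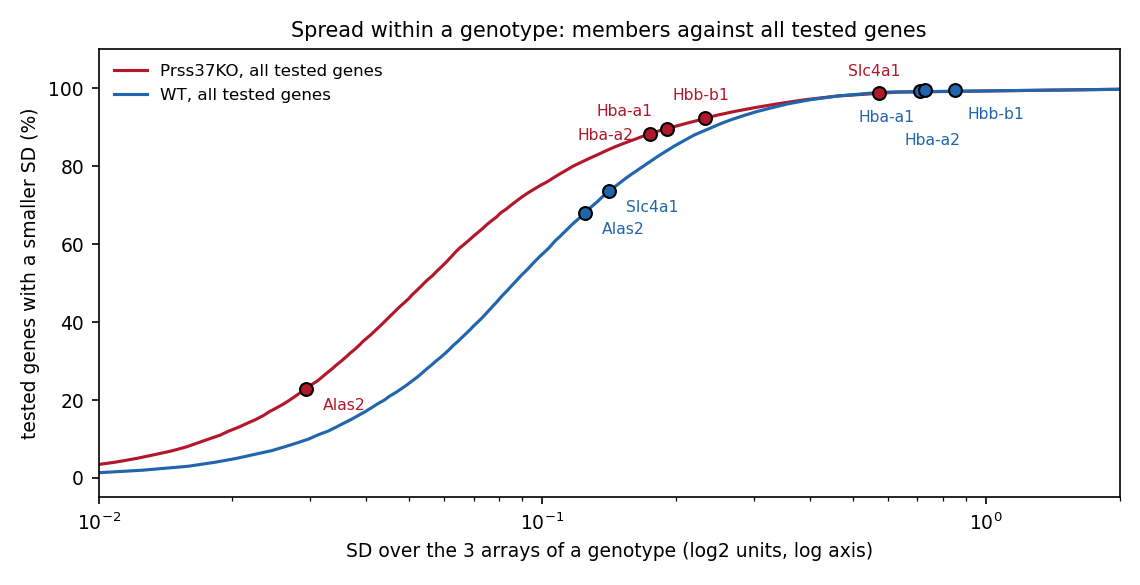
Share of tested genes with a smaller SD (y axis, percent) against the SD over the 3 arrays of a genotype (x axis, log2 units on a log axis), for Prss37KO in red and WT in blue, with 5 genes marked on each curve. The WT globin points, at SDs of 0.71 to 0.85, sit at the top end of the curve, and the Alas2 points lie at 0.03 in Prss37KO and 0.12 in WT.

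The bases before the annotated starts of the globin genes and Alas2 are shown as a description, and their part in the levels was not tested. The windows are the 250 bases before the start from RefSeq (GRCm38.p6), 5' to 3' on the gene's strand. Capitals mark 4 kinds of motif found on either strand, the GATA box (AGATAA or AGATAG, and likewise TGATAA or TGATAG), the CACCC box (CACCC), the CCAAT box (CCAAT) and the TATA box (TATAA), and neighbouring matches run together. A match describes the letters and does not show that a factor binds.
Hba-a1, chr11:32283422-32283671, plus strand: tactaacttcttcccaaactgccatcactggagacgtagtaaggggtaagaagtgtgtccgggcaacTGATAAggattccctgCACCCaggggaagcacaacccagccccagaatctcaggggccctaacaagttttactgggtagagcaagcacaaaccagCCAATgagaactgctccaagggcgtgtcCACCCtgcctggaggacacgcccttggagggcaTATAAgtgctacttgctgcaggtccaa
Hbb-bt, chr7:103813924-103814173, minus strand: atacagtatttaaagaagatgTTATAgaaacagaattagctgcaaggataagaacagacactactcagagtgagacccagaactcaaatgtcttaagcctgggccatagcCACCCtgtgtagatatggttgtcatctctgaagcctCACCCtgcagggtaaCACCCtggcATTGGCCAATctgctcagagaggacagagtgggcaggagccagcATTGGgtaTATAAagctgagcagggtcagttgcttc
Hbb-bs, chr7:103827929-103828178, minus strand: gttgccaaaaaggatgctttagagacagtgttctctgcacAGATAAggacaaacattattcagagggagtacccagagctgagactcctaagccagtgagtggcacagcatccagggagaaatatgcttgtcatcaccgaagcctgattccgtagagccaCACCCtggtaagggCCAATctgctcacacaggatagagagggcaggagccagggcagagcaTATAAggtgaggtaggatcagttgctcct
Alas2, chrX:150547167-150547416, plus strand: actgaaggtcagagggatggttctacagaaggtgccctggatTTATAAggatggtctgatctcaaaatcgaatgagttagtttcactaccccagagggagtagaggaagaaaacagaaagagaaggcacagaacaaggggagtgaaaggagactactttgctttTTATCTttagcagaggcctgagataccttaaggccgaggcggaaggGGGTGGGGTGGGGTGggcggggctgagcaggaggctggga
The Hba-a2 window is not shown. With the 50 bases after the start included, the Hba-a1 and Hba-a2 sequences were identical over 297 of 297 compared bases, at an offset of 3.

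The Hba-a1 window held 1 GATA, 2 CACCC, 1 CCAAT and 1 TATA match, the last 23 bases before the start. The Hbb-bt window held 0 GATA, 3 CACCC, 3 CCAAT and 2 TATA matches, and the Hbb-bs window 1 of each kind. The Alas2 window held 1 GATA match 81 bases before the start, 3 CACCC matches and 0 CCAAT matches. Its 2 TATA matches overlapped on opposite strands of 1 stretch, the nearer of them 203 bases before the start. The same search was made in the 250 bases before the start of 32851 RefSeq windows. Of these, 26.5% held a GATA box, 52.0% a CACCC box, 33.8% a CCAAT box and 22.8% a TATA box, so single matches are common. In all 3 globin windows a TATA and a CCAAT match lay close to the start, and in the Alas2 window these letters were not found there.

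No other gene of the heme pathway passed the test. All 16 listed genes of heme synthesis and mitochondrial iron were tested, 0 passed the test, and their median difference was 0.01 against -0.002 over all tested genes. Alas1, the aminolevulinate synthase of most other cells, had processed signals of 29921, 27862 and 28131 in the knockout mice and 34759, 32650 and 42630 in the wild-type mice, a difference of -0.32 (limma, adjusted p = 0.083). The groups did not overlap, and the difference lay on the other side of 0 from that of Alas2. Cpox, the coproporphyrinogen oxidase gene, had a difference of 0.21 (limma, adjusted p = 0.091). Alad, whose enzyme takes the step after aminolevulinate synthase, had processed signals of 4473, 5625 and 7561 in the knockout mice and 4163, 4268 and 4218 in the wild-type mice, without overlap. Its difference was 0.48, nearly that of Alas2, with an adjusted p of 0.21 (limma), and it was 0.25 within slide 1 and 0.95 within slide 2. Of the 16 genes, 9 had differences above 0 and 7 below 0, and 8 had genotypes that did not overlap, beside 31.6% of all tested genes. In the list of heme and hemoglobin clearance, 12 of 12 genes were tested, 0 passed and the median was 0.04. The genes of smallest p there were Cd163, the macrophage receptor for hemoglobin bound to haptoglobin, at 0.36 (adjusted p = 0.072), and Ftl1, the ferritin light chain gene, at 0.22 (adjusted p = 0.12).

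Several genes that mark red cell precursors were not well above background. Of 24 listed genes of the red cell membrane and cytosol, 17 were tested, 0 were called higher and 1 was called lower, with a median difference of 0.05. Ahsp, the chaperone of free alpha globin, had processed signals of 23.0, 11.2 and 8.40 in the knockout mice and 13.5, 6.59 and 13.1 in the wild-type mice. On none of the 6 arrays was it well above background, and the same held for Epb42, Icam4, Rhag and Trim10. In a whole testis, fewer red cells or precursors and less RNA per cell cannot be told apart.

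The gene called lower in that list was Ank1, which encodes the ankyrin that ties the spectrin skeleton to the Slc4a1 protein. Its probe A_52_P655842 had processed signals of 111, 116 and 119 in the knockout mice and 221, 217 and 211 in the wild-type mice, without overlap. The difference was -0.88 with a standard error of 0.07, a 1.84-fold lower level in Prss37KO (limma, adjusted p = 0.017), and with slide as a block the adjusted p was 0.040. A second tested Ank1 probe, A_51_P269375, gave a difference of 0.42 with an adjusted p of 0.31 when every probe was fitted on its own, so the probes of this gene disagree in direction. With the mean of its probes the Ank1 difference was -0.23 (adjusted p = 0.34).

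Of 13 erythroid regulators, 12 were tested, 0 passed and the median difference was 0.07. Nfe2, a transcription factor gene of red cell precursors and megakaryocytes, had processed signals of 584, 589 and 526 in the knockout mice and 389, 396 and 503 in the wild-type mice, a difference of 0.44 (limma, adjusted p = 0.067). Lyl1, a transcription factor gene of blood cell precursors, had 993, 1000 and 1022 in the knockout mice and 706, 703 and 921 in the wild-type mice, a difference of 0.42 (limma, adjusted p = 0.070). Hemgn, an erythroid nuclear protein gene, was at -0.35 (adjusted p = 0.12) and Gata1, the main erythroid transcription factor gene, at -0.16 (adjusted p = 0.14). The genotypes did not overlap for 7 of the 12 genes, these 4 included, beside 31.6% of all tested genes, and 9 of the 12 had differences above 0 and 3 below 0. Of 10 other globin genes 3 were tested and 0 passed. The embryonic beta-like gene Hbb-y was at -0.28 (adjusted p = 0.42) and Cygb, the cytoglobin gene, at -0.08 (adjusted p = 0.73), while the embryonic genes Hba-x and Hbb-bh1 were not well above background on any array.

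Over these 5 erythroid and heme lists, 60 of 75 genes were tested, and 0 were called higher and 1 lower, beside 1.21% of all tested genes called higher, 1.25% called lower and 2.46% called in either direction. The count is near the background and sets the lists apart in neither direction.

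**Figure D4:**
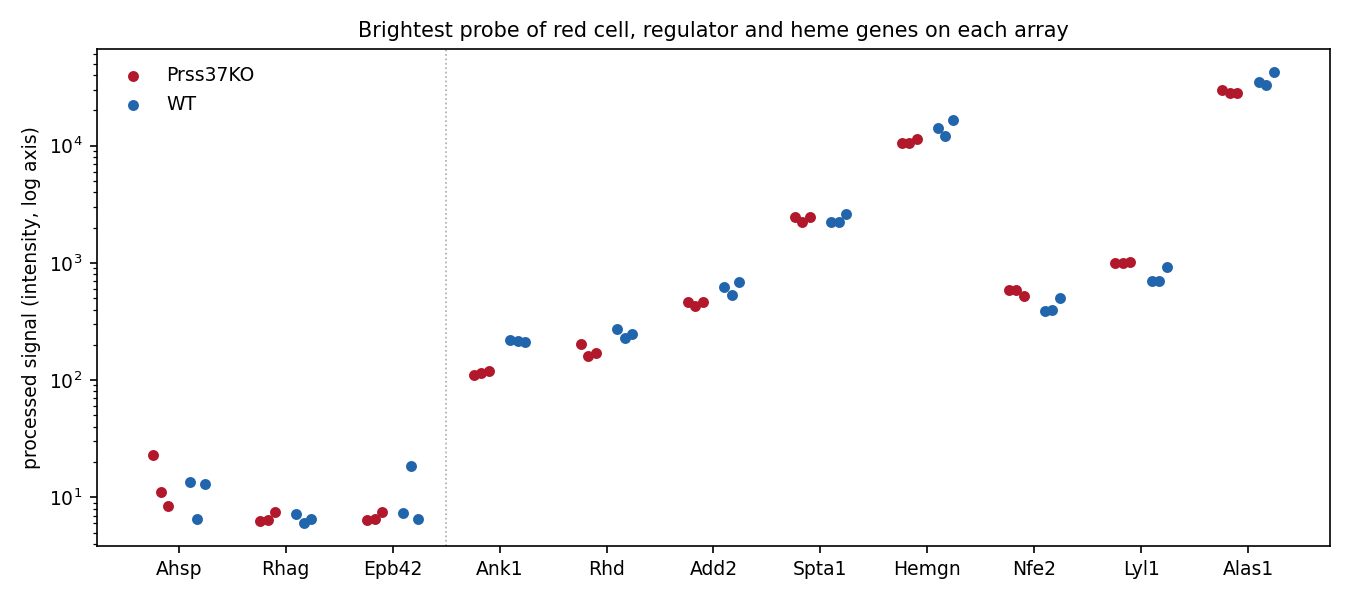
Processed signal (intensity, log axis) of the brightest probe of 11 red cell, regulator and heme genes on each array, with Prss37KO mice in red left of WT mice in blue. The 3 genes left of the dotted line were not well above background on any array, and Ank1 shows 111 to 119 in Prss37KO below 211 to 221 in WT.

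Markers of other blood cells and of vessels were listed beside the erythroid genes. Over these 5 lists 35 of 53 genes were tested, 1 was called higher and 0 lower, beside 1.21% of all tested genes called higher and 1.25% called lower, so this count is near the background too. The gene called higher was Ms4a1, the CD20 gene of B cells, with processed signals of 115, 104 and 114 in the knockout mice and 74.7, 78.9 and 72.3 in the wild-type mice. Its difference was 0.59 with a standard error of 0.07, 1.51-fold (limma, adjusted p = 0.034), and its adjusted p was 0.057 in the fit with slide as a block. Its other tested probe gave 0.50 (adjusted p = 0.23 with every probe fitted on its own). It was the only one of 7 tested lymphocyte genes of 10 listed to pass.

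Of 11 monocyte and macrophage genes, 11 were tested, 0 passed and the median was 0.16. Csf1r, a growth factor receptor gene of these cells, was at 0.16 (adjusted p = 0.15) and C1qa, a complement gene, at 0.23 (adjusted p = 0.17). The summed level of the list, relative to the 75th percentile, was 16.6 to 20.3 in the knockout mice and 13.2 to 16.7 in the wild-type mice. The 10 tested endothelial genes of 11 gave 0 calls, with Cldn5 at 0.10 (adjusted p = 0.25) and Tek at 0.13 (adjusted p = 0.37), and their summed level was 5.07 to 5.47 in the knockout mice and 5.23 to 5.32 in the wild-type mice. Wild-type replicates 1 and 2, between which globin signals differed up to 3.51-fold, had endothelial summed levels of 5.28 and 5.23. Their summed levels were 16.6 and 13.2 for the monocyte and macrophage list and 2.51 and 2.78 for the lymphocyte list. Summed levels add linear values, so the brightest genes of a list weigh most and a sum need not follow the cell type. The part of vessel or blood content in the globin levels was not tested. Of 10 platelet genes 5 were tested and 0 passed, with Treml1 at -0.17 (adjusted p = 0.47) and Gp1bb at 0.07 (adjusted p = 0.66). Of 11 neutrophil genes 2 were tested, Lcn2 at 0.30 (adjusted p = 0.22) and Mpo at -0.08 (adjusted p = 0.41), and the granule genes Camp, Ltf and Ngp were not well above background on any array.

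**Figure D5:**
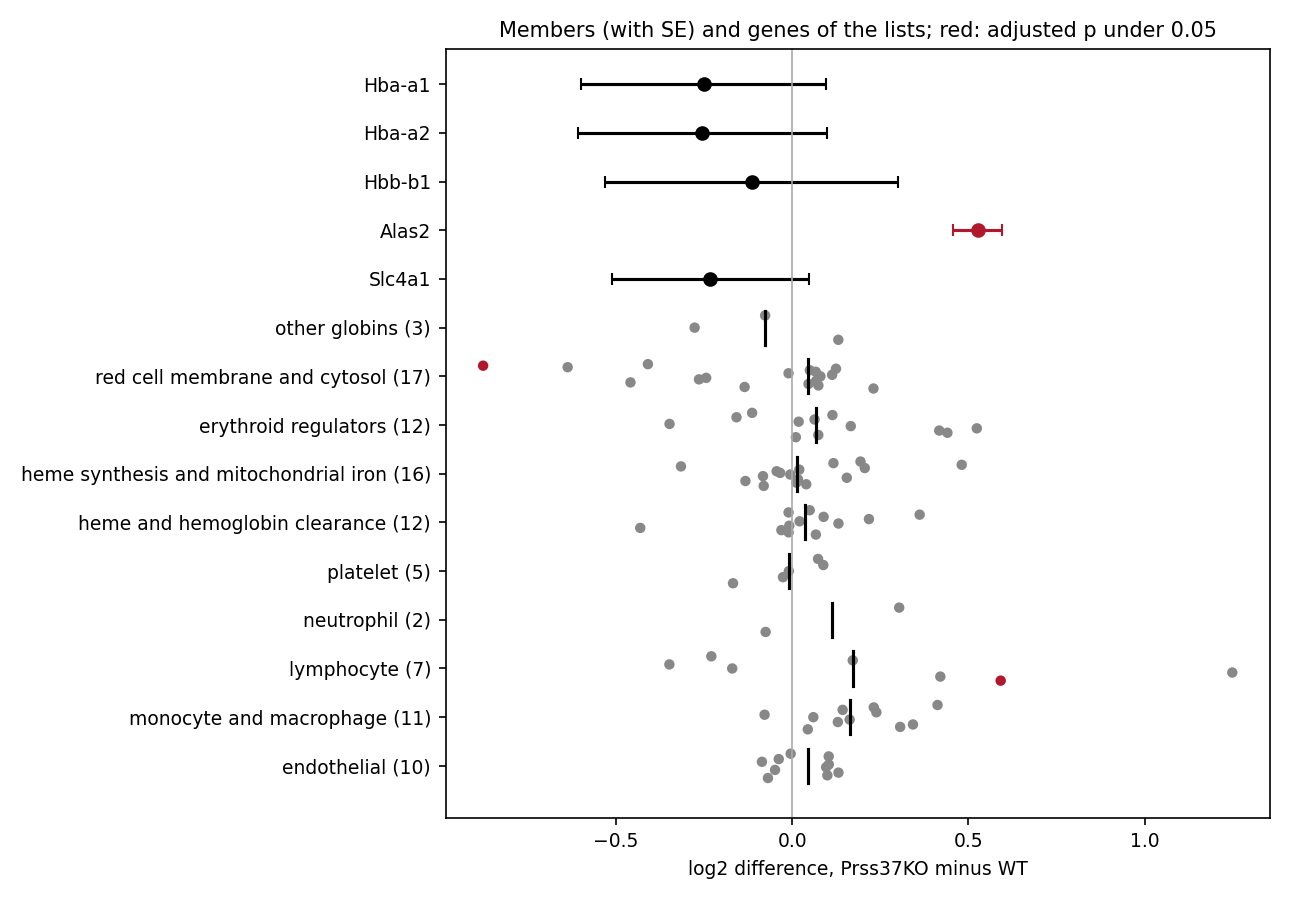
Log2 difference, Prss37KO minus WT (x axis), for the 5 tested genes with their standard errors (top) and for each gene of the lists (points, with the number tested in brackets and the list median as a bar). Red marks an adjusted p under 0.05 (limma): Alas2 at 0.53, Ank1 at -0.88 and Ms4a1 at 0.59.

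The genes whose centred profile over the 6 arrays lay nearest to that of the globins were sought among all tested genes with a symbol, by the mean absolute difference. The nearest was Cpa3, a mast cell carboxypeptidase gene, at 0.13, with processed signals of 81.2, 76.4 and 73.4 in the knockout mice and 170, 59.2 and 96.3 in the wild-type mice. It was highest in wild-type replicate 1 and dim on all arrays. Scn10a and Obox7 stood at 0.20, Adamtsl2, well above background on 4 arrays, at 0.21 and Stfa2l1 at 0.22, against a median of 0.36 over the tested genes. Alas2 and Slc4a1 stood at 0.53, and 96.4% of tested genes were nearer to the globin profile than Alas2. Of the 6 nearest genes, 5 were the same after quantile normalization, 6 in the deposited table and 2 after normexp background correction.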

How the data were processed

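Total RNA of whole testes had been amplified, labelled with Cy3 and hybridised to single-colour Agilent mouse arrays, per the labels' protocols. Per the file headers, Agilent Feature Extraction 10.7.3.1 made the deposited spot intensity values and removed background from the processed signal. The submitters' processing notes give version 10.7. Flags, positions and names came from other columns of these deposited files. The authors also deposited a table of log2 values, whose columns had a median of 7.72 and sorted values equal within 0.00125. Their scale is that of log2 processed signals, and equal sorted values are what quantile normalization gives. No step is stated for them.

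Control spots and outlier-flagged spots (86 to 159 per array) were left out. Log2 processed signals were set relative to the 75th percentile of their array (1550 to 1707 in signal), and replicate spots were averaged. Tested probes were well above background on all unflagged arrays of 1 or both genotypes and had 2 or more values in each. Each gene was represented by its brightest tested probe, giving 18976 genes. Genotypes were compared with limma 3.58.1 (lmFit, eBayes, R 4.3.3). Benjamini-Hochberg adjustment ran over all tested genes, and an adjusted p under 0.05 was called. Precision is limited by the number of arrays, which per the series' design text are separate mice. Coordinates of probes were read in the scanner files (mm9), and names and promoters come from RefSeq tables (GRCm38.p6). The fit was tested on simulated data.

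The genes, lists and tests were chosen with earlier results of these data known. The naming rule took every probe of the 6 genes, up to 3 called genes of each list or, failing any, the 2 of smallest p, and the 6 genes with a symbol nearest to the mean globin profile. Some genes that this rule or these lists hold are not reported here. Hemgn, Gata1, Alad, Epb42, Icam4, Rhag, Trim10, Ahsp, Hba-x, Hbb-bh1, Camp, Ltf and Ngp were named after their values were seen. Alternatives were normexp (offset 50), quantile normalization, median centring, the deposited table, other filters, other rules for several probes, a variance trend with robust fitting, weighted arrays, replicate or slide blocks, each array left out and an adjusted p under 0.1. The fit on slide 1 alone and the profile alternatives were added after the data were seen.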

Additional observations from a re-analysis of the deposited data

How the results depend on the processing

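The Alas2 difference lay above 0 in all 21 alternative settings, though only those with another scaling or background correction could have changed its sign. Its adjusted p (limma) ran from 0.010 to 0.159. The call was lost, leaving 0 genes of the 6 called higher, without the filter on dim probes (difference 0.53, adjusted p = 0.127), with the replicate block (0.53, 0.133), with slide as a block (0.53, 0.062), on slide 1 alone (0.52, 0.159) and without each array but wild-type replicate 2. Leaving out 1 array gave 0.46 to 0.58 for Alas2, with adjusted p between 0.032 and 0.153, and 0 to 1 genes called higher. The globin differences changed sign with single arrays left out. Hba-a1 ran from -0.60 to 0.11 and Hba-a2 from -0.60 to 0.12, both above 0 without wild-type replicate 1. Hbb-b1 ran from -0.56 to 0.29, and it was 0.29 without wild-type replicate 1 and 0.0062 without knockout replicate 2. Scn10a ran from -0.648 to 0.0572, Cpa3 from -0.678 to 0.0685 and Gp1bb from -0.012 to 0.122, each changing sign without wild-type replicate 1, and Scn10a also at 0.021 when knockout replicate 2 was left out. Cygb was 0.025 on slide 1 alone. Of the list genes, 1 was called higher and 1 lower. The count called higher was 0 without the filter, with averaged probes and with the replicate or slide block, 3 with variance trend and robust fitting or array weights, and 5 at an adjusted p under 0.1. The count called lower was 2 with normexp or with detection required on every array, 0 without the filter, with the replicate block and on slide 1 alone, 4 with variance trend and robust fitting or array weights, and 5 at an adjusted p under 0.1. With single arrays left out these counts were 0 to 3 higher and 0 to 2 lower. The cause of these changes was not tested, apart from the settings with fewer arrays or more genes tested. The replicate numbers were not taken as pairs, since deviations of same-numbered mice correlated at -0.03, -0.03 and 0.16, and the best match of knockout replicate 1 was wild-type replicate 2 at 0.14. For the globins, SDs in Prss37KO reached at most 0.33 and those in WT at least 0.70 under the 4 alternatives tried, and the Slc4a1 SD in Prss37KO was 0.08 over the arrays of slide 1, against 0.57 over all 3. Among the tested genes named here, signal over background limits Slc4a1, Ms4a1, Cd163, Hbb-y, Treml1, Tek, Cpa3, Scn10a, Obox7, Adamtsl2 and Stfa2l1. Their processed signals were under 200 on all arrays, and those of the called Ank1 probe were under 200 in the knockout mice.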
